A study of Mus musculus with 16 samples.

Results

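The cell cycle genes described here are 43 mouse genes chosen by symbol: 18 genes of DNA replication and entry into S phase, 24 genes of mitosis, and the G1 cyclin gene Ccnd1. They were found among the 54532 genes of a count table and, by the same gene identifier, in a table of TPM (transcripts relative to a fixed total, scaled for gene length). The RNA came from KPC1199, a mouse pancreatic cancer cell line, sorted out of tumours that had grown orthotopically, that is in the pancreas. Of the 16 samples labelled, 8 are whole tumour tissue and were not analysed here, and 8 are sorted cells in 4 groups of 2 libraries. The sorted groups are KPC1199 cells labelled ly6D WT, KPC1199 cells with ly6D overexpression, and KPC1199 cells with high or low ly6D expression (Ly6d-high and Ly6d-low). All 4 groups share the cell line and the tumour site, and the labels give no age, host strain, promoter of the overexpressed gene or sorting marker, nor whether the line is a clone. The 2 count columns taken as sorted overexpression cells bear the name (m3) that stands in the titles of the whole-tumour overexpression samples, while the sorted overexpression samples have titles of another name (OE), so that assignment is inferred and not stated. The name of the WT columns (pxpr) stands in the titles of both the sorted and the whole-tumour WT samples. If the overexpression columns held whole tumour and the WT columns sorted cells, every result of overexpression against WT below would set tissue against sorted cells, and from the names these cannot be told apart. Nothing in the labels says that the libraries of a group came from separate animals or cultures, so p-values measure the spread between these samples, which may be technical. Ly6d itself, which encodes a small surface protein anchored by a lipid, stood at 1260 and 1066 CPM in WT and 3380 and 3423 CPM in overexpression cells (CPM, counts scaled to a fixed library total). It stood at 1.56 and 0.352 TPM in Ly6d-low and 697 and 504 TPM in Ly6d-high cells, so both contrasts match their labels for this gene.

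Cells copy their DNA once in S phase and divide in M phase, and each phase has its own set of transcripts. Replication genes encode the MCM helicase and its loaders (Cdc6, Cdt1), the sliding clamp (Pcna) and enzymes that supply nucleotides (Rrm1, Rrm2, Tyms), and are transcribed around the G1/S boundary, largely through E2F factors. Mitotic genes encode the B and A cyclins, spindle motors, kinetochore proteins and the ubiquitin enzymes that end mitosis, and are transcribed in G2 and M phase. Their control runs largely through the DREAM and MuvB complexes at CHR elements and through NF-Y at CCAAT boxes. In tumours both sets are read as measures of how many cells are cycling.

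The promoters of the classes held different motifs. Windows from 250 bases before to 50 bases after the annotated start (RefSeq, GRCm38.p6) were matched by symbol for 33 of the 43 genes, 15 of them replication genes and 18 mitotic. They were searched on both strands for an E2F motif (TTCCCGC, or the form TTCGCGC, or the form TTGCCGC, or else TTGGCGC), a CHR motif (TTTGAA, or the form TTCGAA) and the CCAAT box. An E2F motif was found in 10 of 15 replication promoters (66.7%) and 3 of 18 mitotic promoters (16.7%). A CHR motif was found in 2 replication promoters (13.3%) and 15 mitotic promoters (83.3%). CCAAT occurred in 10 replication promoters (66.7%) and 17 mitotic promoters (94.4%). Over all 32851 windows in the table the shares were 9.57% for E2F, 19.2% for CHR and 37.4% for CCAAT. Over the 11245 genes tested in the count table that have a window, they were 18.4%, 16.7% and 42.5%. In 3 of the genes (Cdca8, Mcm7 and Ccnb1) matches of different motifs overlap one another. A match is a run of letters and not a measured binding site.

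The replication promoters below belong to the genes with the lowest p between overexpression and WT cells, and each is printed 5′ to 3′ on the strand of its gene up to the base before the start, with matches of the motifs in capitals. They are Mcm3 (chr1:20820313-20820442, minus strand), Mcm5 (chr8:75109339-75109508, plus strand), Cdc6 (chr11:98908001-98908150, plus strand) and Mcm6 (chr1:128359706-128359825, minus strand).
Mcm3: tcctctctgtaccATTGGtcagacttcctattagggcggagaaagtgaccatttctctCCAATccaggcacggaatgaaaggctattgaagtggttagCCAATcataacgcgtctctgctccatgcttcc
Mcm5: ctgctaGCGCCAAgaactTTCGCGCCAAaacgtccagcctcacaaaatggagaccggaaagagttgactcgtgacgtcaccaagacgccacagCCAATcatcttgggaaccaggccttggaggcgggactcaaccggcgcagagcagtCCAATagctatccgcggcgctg
Cdc6: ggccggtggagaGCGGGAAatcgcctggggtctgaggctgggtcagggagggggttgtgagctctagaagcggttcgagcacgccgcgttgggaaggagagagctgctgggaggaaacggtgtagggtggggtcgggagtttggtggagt
Mcm6: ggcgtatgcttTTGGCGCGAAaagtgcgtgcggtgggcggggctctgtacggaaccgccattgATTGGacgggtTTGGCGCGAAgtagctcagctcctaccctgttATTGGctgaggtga
Mcm5 and Mcm6 carry E2F letters that run into each other on opposite strands, together with CCAAT boxes. Cdc6 has a single E2F match and no CCAAT in the stretch shown. The gene model of Cdc6 in the count table begins upstream of that stretch, at base 98907801. The RefSeq start used here thus lies inside the model, and bases before the model's own start were not searched. In Mcm3 the E2F matches lie after the start and are not printed, so its capitals are CCAAT boxes on either strand.

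The mitotic promoters printed for comparison are those of Top2a (chr11:99024190-99024379, minus strand), Mki67 (chr7:135716380-135716509, minus strand), Kif11 (chr19:37376282-37376381, plus strand) and Cdc20 (chr4:118437344-118437413, minus strand), in the same form. The first 3 are among the mitotic genes with the lowest p between overexpression and WT, and Cdc20 among those with the lowest p between Ly6d-high and Ly6d-low.
Top2a: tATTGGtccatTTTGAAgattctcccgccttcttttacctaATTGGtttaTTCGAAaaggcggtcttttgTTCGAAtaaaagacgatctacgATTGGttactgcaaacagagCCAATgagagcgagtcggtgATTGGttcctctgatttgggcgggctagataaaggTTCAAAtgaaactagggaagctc
Mki67: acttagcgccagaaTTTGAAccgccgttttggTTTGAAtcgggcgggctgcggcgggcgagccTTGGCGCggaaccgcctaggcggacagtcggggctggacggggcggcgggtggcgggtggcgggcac
Kif11: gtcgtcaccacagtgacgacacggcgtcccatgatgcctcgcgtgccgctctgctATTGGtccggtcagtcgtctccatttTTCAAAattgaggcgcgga
Cdc20: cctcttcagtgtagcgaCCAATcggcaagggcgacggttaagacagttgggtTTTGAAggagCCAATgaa
All 4 hold a CHR motif, and in Kif11 and Cdc20 it lies close to the start with a CCAAT box upstream. The last of several CHR matches in Top2a lies so as well. Mki67 also has an E2F match in the printed stretch. In the bar plot of motif shares, the replication bar is the taller for E2F and the mitotic bar for CHR.

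**Figure D1:**
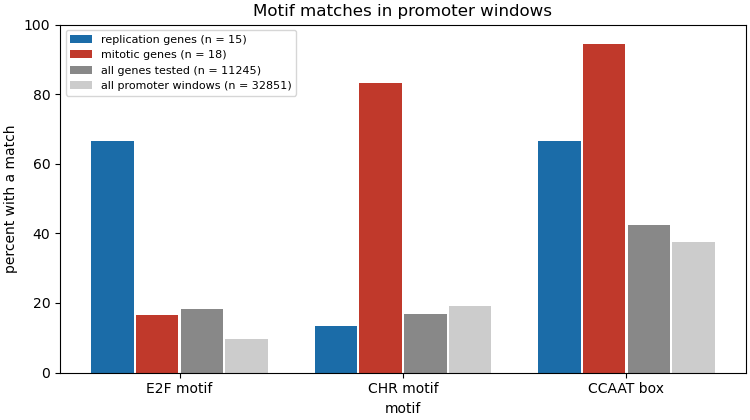
Percent of promoter windows with an E2F motif, a CHR motif or a CCAAT box (vertical axis, from 0) for 15 replication genes, 18 mitotic genes, 11245 genes tested in the count table and all 32851 windows. E2F matches were found in 66.7% of replication and 16.7% of mitotic promoters, and CHR matches in 13.3% and 83.3%.

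Facts of the libraries that bear on these values are as follows. Totals were 15449241 to 18290325 counts in the count table and 15063975 to 20509539 recovered reads in the TPM table, and each of the 43 genes had at least 74 counts in every library. The second WT library stood apart: the small RNA gene Gm23935 took 0.823% of its counts against 0.0487% to 0.0654% in the other 3 libraries, so levels are given as CPM or CPM per kilobase. The 100 most abundant genes held 41.6% and 41.1% of TPM in Ly6d-low and 36.4% and 33.5% in Ly6d-high cells. Of the 43 genes, 11 overlap another tested gene on the opposite strand, which matters if reads were not counted by strand. All 8 tumour epithelial markers were detected in every library. Their summed level was 12056 to 12445 CPM in WT and 12745 to 13430 CPM in overexpression cells. Krt8, Krt18 and Krt19 were higher in both overexpression libraries, Krt7, Cldn4 and Cldn7 were lower, and Epcam and Cdh1 overlapped. The sum was 55738 to 56867 TPM in Ly6d-low and 39162 to 40038 TPM in Ly6d-high cells. Krt7, Krt8, Krt18, Krt19 and Epcam were lower in both Ly6d-high libraries, while Cldn4, Cldn7 and Cdh1 were higher. The sum therefore does not stand for every marker of this list. The 18 acinar markers are genes of the normal exocrine pancreas, and all 18 were called lower in overexpression cells. They summed to 24207 and 24757 CPM in WT and 1805 and 1997 CPM in overexpression cells. In the TPM table they summed to 6820 and 6833 TPM in Ly6d-low and 17428 and 15789 TPM in Ly6d-high cells. There Cela1 went the other way, with 429 and 416 TPM in Ly6d-low and 380 and 353 TPM in Ly6d-high cells, and Amy2a5 overlapped. The 10 macrophage markers, of which 6 were called higher in overexpression cells and 5 in Ly6d-high cells, summed to 80.5 and 81.9 CPM in WT and 230.0 and 238 CPM in overexpression cells, and to 66.6 to 70.3 TPM in Ly6d-low and 198 to 208 TPM in Ly6d-high cells. The 10 neutrophil markers, 6 of them called higher in overexpression cells, summed to 54.3 to 55.2 CPM in WT and 171 to 184 CPM in overexpression cells, with Mpo and Elane listed at 0 in some libraries of both groups. They summed to 61.3 to 63.4 TPM in Ly6d-low and 161 to 197 TPM in Ly6d-high cells. Nearly all of that was Ltf, at 59.7 and 61.5 TPM in Ly6d-low and 156 and 193 TPM in Ly6d-high cells. In the count table Ltf stood at 51.6 and 51.8 CPM in WT and 50.4 and 54.8 CPM in overexpression cells. The 8 endothelial markers, 4 of them called lower in overexpression cells, summed to 264 and 265 CPM in WT and 136 and 158 CPM in overexpression cells, and to 65.9 and 71.9 TPM in Ly6d-low and 87.9 and 117 TPM in Ly6d-high cells. Vwf was higher in overexpression, with 9.77 and 10.6 CPM in WT and 12.1 and 18.2 CPM in overexpression cells. Most of the TPM sum was Plvap, at 57.5 and 63.8 TPM in Ly6d-low and 78.0 and 107 TPM in Ly6d-high cells. In TPM Vwf and Cldn5 were higher too, while Pecam1, Cdh5, Kdr, Tek and Emcn overlapped. The 5 erythroid markers, 1 of them called higher in overexpression cells, summed to 29.2 and 38.8 CPM in WT and 64.5 and 64.6 CPM in overexpression cells. Their TPM sums overlapped, at 55.5 and 57.1 TPM in Ly6d-low and 82.2 and 48.8 TPM in Ly6d-high cells. Markers of other cells thus differed between the groups of both contrasts. The 10 T and NK cell markers summed to 2.48 and 2.14 CPM in WT and 8.26 and 8.55 CPM in overexpression cells, and to 3.79 and 1.85 TPM in Ly6d-low and 8.23 and 6.39 TPM in Ly6d-high cells, with Cd3e at 0 in 3 of the 4 libraries of the count table and in 2 of the 4 of the TPM table. Which part these other cells had in the results on cell cycle genes was not tested. In bulk libraries fewer cycling cells and less of these RNAs per cell cannot be told apart.

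Levels of the 43 genes differed widely from gene to gene in both tables. Scaled by gene length, the highest in the count table were Ccnd1 at 72.96, the sliding clamp gene Pcna at 70.2 and the ribonucleotide reductase gene Rrm2 at 28.7 CPM per kilobase (means of 4 libraries). Among mitotic genes in that table Cdc20, an activator of the anaphase-promoting complex, led with 24.7, before Top2a (topoisomerase II alpha) with 22.8 and the cyclin gene Ccnb2 with 22.04 CPM per kilobase. The lowest was Ccne2, an E-type cyclin gene, at 1.66 CPM per kilobase. In the TPM table the leading level was that of Pcna at 227 TPM, followed by Rrm2 at 183, the ubiquitin-conjugating enzyme gene Ube2c at 142, Ccnd1 at 132 and Ccnb2 at 129 TPM. The order of levels in the count table and the TPM table had a Spearman rho of 0.77 over the 43 genes, which is a description across genes that share libraries. Rrm2 and Mcm3 were neighbours in the count table at 28.7 and 27.1 CPM per kilobase, a gap that the spread of Rrm2 between overexpression libraries (75.3 to 83.7 CPM) can cover.

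Between overexpression and WT cells, most replication genes lay somewhat lower in overexpression cells and the mitotic genes were divided. Of the 43 genes, 2 passed the threshold (edgeR quasi-likelihood test, Benjamini-Hochberg adjusted p under 0.05 over 15771 genes): Mcm3 and Ccnd1, both lower in overexpression. That is 4.65% of the members against 1.84% of all genes tested that were called lower, and none was called higher against 2.32%. The median log2 fold change over the 43 genes was -0.15, with 35 below 0, while the median over all genes tested was near 0 and 50.2% of them lay below 0. In 16 genes (37.2%) both overexpression libraries lay below both WT libraries, against 21.7% of all genes tested. In 2 genes (4.65%), Cenpf and Cenpa, they lay above, against 26.3%. At an unadjusted p under 0.05 there were 12 lower and 1 higher members, beside 8.24% and 9.05% of all genes. The plot of CPM by library shows how narrow the differences are beside the range of levels.

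**Figure D2:**
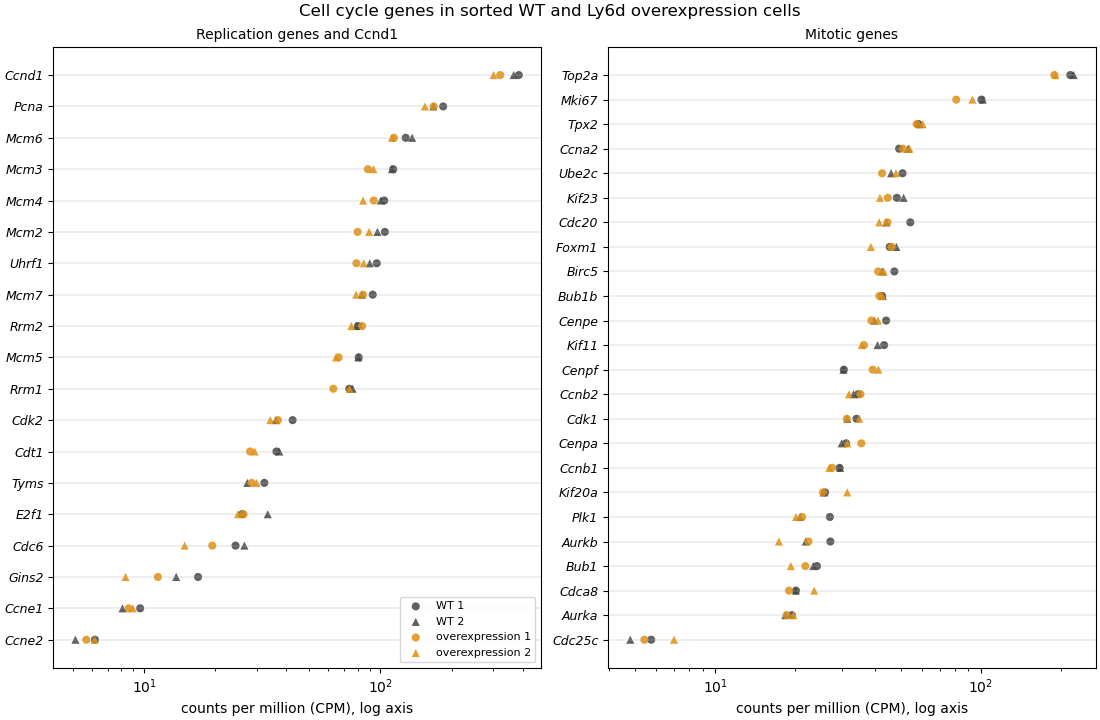
CPM (log axis) of each of the 43 genes in the 2 WT libraries (grey) and the 2 overexpression libraries (orange), with replication genes and Ccnd1 on the left and mitotic genes on the right. Each point is 1 library. In 16 genes both orange points lie below both grey points, and in Cenpf and Cenpa both lie above.

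The 6 genes of the MCM helicase, the ring that unwinds DNA at the fork, lay below WT in every case, with log2 fold changes from -0.33 to -0.13 and a median of -0.25. Mcm3 (ENSMUSG00000041859, chr1:20802968-20820312) had 113 and 112 CPM in WT and 88.5 and 93.3 CPM in overexpression cells. Both overexpression libraries were lower than both WT libraries, and Mcm3 fell by 0.33 on the log2 scale (SE 0.08, adjusted p = 0.0391 by edgeR). The call is not firm: over the alternatives its adjusted p ran from 0.00676 to 0.128, and it was lost with DESeq2 and without either WT library or the first overexpression library. Mcm5 (ENSMUSG00000005410, chr8:75109569-75128439) had 80.9 and 80.6 CPM in WT and 66.5 and 64.9 CPM in overexpression cells, groups that do not overlap. Its log2 fold change was -0.32 ± 0.09 with an edgeR adjusted p of 0.0728, on the other side of the threshold from Mcm3 at nearly the same size. Mcm6 (ENSMUSG00000026355, chr1:128331590-128359664), the MCM gene with the largest count, had 128 and 136 CPM in WT and 114 and 112 CPM in overexpression cells. It too showed no overlap, at -0.24 ± 0.08 (edgeR adjusted p = 0.108). In Mcm2 (-0.27 ± 0.09) and Mcm4 (-0.21 ± 0.08) the groups were apart in the same direction without passing the test. Mcm7 was at -0.13 ± 0.09, and its WT value of 83.5 CPM in the second library lay under the 84.4 CPM of the first overexpression library, so its groups overlap.

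Helicase loading and the rest of the replication set showed the widest fold changes in genes with low counts. Cdc6 (ENSMUSG00000017499, chr11:98907801-98923940), the ATPase that loads the MCM ring with Cdt1, had 24.4 and 26.5 CPM in WT and 19.4 and 14.8 CPM in overexpression cells. The overexpression libraries were lower and differed from each other by more than the WT libraries did, and the log2 fold change was -0.59 ± 0.17 (edgeR adjusted p = 0.0865). Without the first overexpression library Cdc6 passed the threshold, and over all alternatives its adjusted p ran from 0.0037 to 0.398. Cdt1 had 36.3 and 37.3 CPM in WT and 28.05 and 29.3 CPM in overexpression cells, apart in the same direction, with -0.38 ± 0.12 (edgeR adjusted p = 0.128). The GINS subunit gene Gins2 had 16.9 and 13.7 CPM in WT and 11.4 and 8.33 CPM in overexpression cells, at -0.65 ± 0.22 (edgeR adjusted p = 0.136), the lowest fold change of the 43 genes and one with a wide error. The gene model of Gins2 overlaps Gse1 on the opposite strand by 2758 bases. Uhrf1, which keeps DNA methylation through replication, was also apart, with 96.5 and 90.1 CPM in WT and 79.1 and 84.9 CPM in overexpression cells.

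The genes of the clamp and of nucleotide supply did not separate in this way. Pcna (ENSMUSG00000027342, chr2:132249162-132253314) had 184 and 168 CPM in WT and 168 and 154 CPM in overexpression cells, and the second WT and first overexpression libraries were level, so the groups overlap (-0.14 ± 0.07, edgeR adjusted p = 0.358). Rrm2 had 80.3 and 79.03 CPM in WT and 83.7 and 75.3 CPM in overexpression cells and a log2 fold change of -0.02 ± 0.09. Rrm1 was at -0.15 ± 0.10 and the thymidylate synthase gene Tyms at -0.05 ± 0.14, both with overlapping groups. Among the S-phase kinase and its cyclins, Cdk2 had 42.5 and 36.1 CPM in WT and 36.8 and 34.2 CPM in overexpression cells. Ccne1 had 9.61 and 8.09 CPM in WT and 8.58 and 8.94 CPM in overexpression cells. Neither was apart, at -0.16 ± 0.12 and -0.03 ± 0.22. Ccne2, at 0.05 ± 0.28, was the replication gene above 0, and its counts were the lowest of the class. E2f1, the transcription factor gene of G1/S, had 25.95 and 33.3 CPM in WT and 26.4 and 24.9 CPM in overexpression cells, with the high value in the second WT library only.

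Ccnd1 (ENSMUSG00000070348, chr7:144929931-144939925) encodes cyclin D1, which with CDK4 or CDK6 starts phosphorylation of the retinoblastoma protein in G1. It had 385 and 366 CPM in WT and 321 and 301 CPM in overexpression cells. Both overexpression libraries were lower, and Ccnd1 fell by 0.29 on the log2 scale (SE 0.07, edgeR adjusted p = 0.0298). Its adjusted p ran from 0.000908 to 0.124 over the alternatives, and the call was lost without the second overexpression library. The gene model overlaps Oraov1 on the opposite strand by 1771 bases, and the labels do not say if counting used the strand.

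Of the 24 mitotic genes none passed the threshold between overexpression and WT by edgeR or DESeq2, and 2 lower and 1 higher had an unadjusted p under 0.05 by either. Of these genes 17 lay below 0 and 7 above, and the median log2 fold change was -0.10. Top2a (ENSMUSG00000020914, chr11:98992943-99024189), which untangles sister chromatids and has the largest counts of the class, had 218 and 224 CPM in WT and 189 and 191 CPM in overexpression cells. The groups do not overlap, at -0.23 ± 0.07 (edgeR adjusted p = 0.0815). Mki67, the proliferation antigen Ki-67, had 101 and 102 CPM in WT and 80.9 and 93.1 CPM in overexpression cells. It was lower in both overexpression libraries, which differed from each other by more than the WT libraries did (-0.24 ± 0.09, edgeR adjusted p = 0.195). The spindle motor gene Kif11 had 43.3 and 40.9 CPM in WT and 36.4 and 35.7 CPM in overexpression cells, also apart, at -0.24 ± 0.11 (edgeR adjusted p = 0.292). Ccnb1, Bub1 and Kif23 were the other mitotic genes with both overexpression libraries below both WT libraries.

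Cenpf went the other way. This kinetochore gene (ENSMUSG00000026605, chr1:189640606-189688086) had 30.5 and 30.4 CPM in WT and 39.2 and 41.2 CPM in overexpression cells. Both overexpression libraries were higher, at 0.38 ± 0.12, and the edgeR adjusted p of 0.107 did not pass the threshold. Cenpa, the centromeric histone gene, was apart in the same direction by a smaller margin, with 31.1 and 29.97 CPM in WT and 35.5 and 31.5 CPM in overexpression cells (0.12 ± 0.13). The kinesin and spindle genes Cenpe (-0.09 ± 0.11), Tpx2 (-0.01 ± 0.10) and Kif20a (0.12 ± 0.15) overlapped between groups. The mitotic kinase gene Plk1 had 27.1 and 20.9 CPM in WT and 21.3 and 20.2 CPM in overexpression cells, with the high value in the first WT library only. Cdc20 had 54.3 and 44.2 CPM in WT and 44.6 and 41.5 CPM in overexpression cells, with the same library standing high. Birc5 (survivin) had 47.3 and 42.6 CPM in WT and 41.1 and 43.2 CPM in overexpression cells. The ubiquitin enzyme gene Ube2c had 50.8 and 46.02 CPM in WT and 42.5 and 48.0 CPM in overexpression cells. Cyclin B2 (Ccnb2) had 34.6 and 33.2 CPM in WT and 35.3 and 31.9 CPM in overexpression cells. None of these 5 separated the groups, and their edgeR adjusted p ran from 0.396 for Cdc20 to 0.937 for Ccnb2. The phosphatase gene Cdc25c, with 5.74 and 4.79 CPM in WT and 5.41 and 6.999 CPM in overexpression cells, overlapped as well. Aurkb, the kinase gene of the chromosomal passenger complex, had the lowest mitotic fold change, -0.32 ± 0.17, with overlapping groups. The remaining mitotic genes (Foxm1, Bub1b, Cdk1, Aurka, Ccna2 and Cdca8) overlapped too, from -0.16 for Foxm1 to 0.06 for Cdca8.

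Set side by side, replication genes lay further below 0 than mitotic genes between overexpression and WT. The medians were -0.21 and -0.10 on the log2 scale, a difference of -0.11, and no p is given because genes of a class are not replicates. Of the replication genes 17 of 18 lay below 0 (94.4%) and in 9 (50%) the overexpression libraries lay below both WT libraries. For mitotic genes these were 17 of 24 (70.8%) and 6 (25%), beside 21.7% of all genes tested for the second count. The 6 MCM genes had a median of -0.25 and the other 12 replication genes one of -0.16. By library, the mean of the replication genes minus that of the mitotic genes, each gene centred on its mean, was 0.07 and 0.08 in WT and -0.04 and -0.11 in overexpression. Both overexpression libraries thus lay below both WT libraries in this measure. The class difference was -0.10 without the second WT library, and ran from -0.15 to -0.097 as each library was left out. The summed CPM of the 18 replication genes was 1252 and 1210 in WT and 1086 and 1068 in overexpression, and that of the 24 mitotic genes 1112 and 1084 against 1018 and 1036.

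Between Ly6d-high and Ly6d-low cells no cell cycle gene passed the threshold (limma on log2(TPM + 1), Benjamini-Hochberg adjusted p under 0.05 over 14625 genes), while 8.64% of all genes tested were called higher and 1.17% lower. At an unadjusted p under 0.05 there were 4 higher and 2 lower members, beside 27% and 3.72% of all genes. EdgeR on the reads recovered from the TPM called 2 members lower, Pcna and Birc5, and none higher, beside 3.87% of 15275 genes called lower. In that count test 17 of the 43 members were lower and none higher at an unadjusted p under 0.05, beside 13.1% and 16.7% of all genes. Direction in this contrast depends on the scaling. On the TPM as deposited 30 of the 43 genes lay above 0 and the median was 0.06, yet the median of all genes tested was 0.25 and 76.7% of them lay above 0. Relative to all genes the members' median was -0.18. After scaling the TPM by TMM factors the median of all genes was -0.01, 38 of the 43 members lay below 0 (88.4%, against 50.8% of all genes) and their median was -0.22. Groups were apart in 11 members upward (25.6%, against 54.4% of all genes) and 8 downward (18.6%, against 10.4%) on the deposited scale. After TMM they were apart in 3 upward (6.98%, against 30.4%) and 28 downward (65.1%, against 30.4%).

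**Figure D3:**
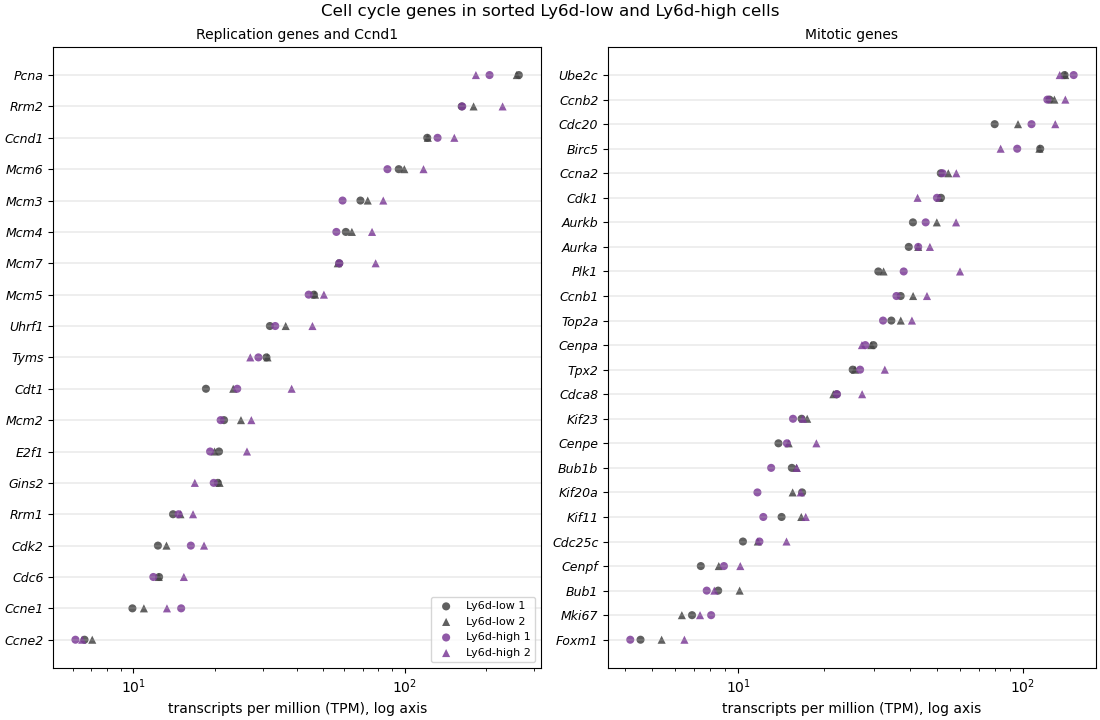
TPM (log axis) of each of the 43 genes in the 2 Ly6d-low libraries (grey) and the 2 Ly6d-high libraries (purple), as deposited, with replication genes and Ccnd1 on the left and mitotic genes on the right. In 34 of the 43 genes the second Ly6d-high library (triangle) lies above the first (circle), and in Pcna and Birc5 both purple points lie below both grey points.

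Pcna had the lowest p of the replication genes. It had 263 and 259 TPM in Ly6d-low and 205 and 183 TPM in Ly6d-high cells, with both Ly6d-high libraries lower. The difference in log2(TPM + 1) was -0.43 ± 0.12 (limma adjusted p = 0.0658), and -0.72 after TMM scaling. The count test on recovered reads called it lower (edgeR adjusted p = 0.0193). Cdk2 had 12.3 and 13.3 TPM in Ly6d-low and 16.3 and 18.3 TPM in Ly6d-high cells, higher in both Ly6d-high libraries (0.40 ± 0.16, limma adjusted p = 0.144, and 0.13 after TMM). Its gene model overlaps Pmel on the opposite strand by 837 bases. Ccne1, the partner of CDK2 at S-phase entry, had 9.95 and 10.96 TPM in Ly6d-low and 15.04 and 13.3 TPM in Ly6d-high cells, apart upward at 0.41 ± 0.17 (limma adjusted p = 0.153), while after TMM scaling its groups overlap. Cdt1 had 18.6 and 23.4 TPM in Ly6d-low and 24.2 and 38.4 TPM in Ly6d-high cells, and the margin between the groups was small beside the gap between both Ly6d-high libraries (0.53 ± 0.24, limma adjusted p = 0.184). Ccnd1 had 121 and 122 TPM in Ly6d-low and 132 and 152 TPM in Ly6d-high cells, a difference of 0.22 ± 0.13 that became -0.07 after TMM scaling.

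The helicase genes were not separated between Ly6d-high and Ly6d-low on the deposited scale. Mcm3 had 68.7 and 73.1 TPM in Ly6d-low and 59.1 and 83.4 TPM in Ly6d-high cells, so the Ly6d-high libraries enclosed both Ly6d-low libraries (-0.01 ± 0.18). Mcm6 had 95.1 and 99.7 TPM in Ly6d-low and 86.4 and 117 TPM in Ly6d-high cells. Mcm5 had 46.3 and 46.8 TPM in Ly6d-low and 44.3 and 50.4 TPM in Ly6d-high cells, and both show the same nesting. Over the 6 MCM genes the median difference was 0.04 on the deposited scale and -0.24 after TMM. Cdc6 (0.11 ± 0.18) and Rrm2 also overlapped, the latter with 162 and 179 TPM in Ly6d-low and 163 and 229 TPM in Ly6d-high cells. Tyms had 30.99 and 31.3 TPM in Ly6d-low and 28.9 and 27.02 TPM in Ly6d-high cells. Gins2 had 20.5 and 20.8 TPM in Ly6d-low and 19.8 and 16.9 TPM in Ly6d-high cells, and both genes were apart downward, with differences near their standard errors (-0.15 ± 0.14 and -0.17 ± 0.16). The replication genes not named in this contrast ran from -0.10 (Ccne2) to 0.23 (Mcm7).

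Among mitotic genes Birc5 (ENSMUSG00000017716, chr11:117849251-117855743), which holds the chromosomal passenger complex together and blocks apoptosis, had 115 and 114 TPM in Ly6d-low and 95.6 and 83.6 TPM in Ly6d-high cells. Both Ly6d-high libraries were lower (-0.36 ± 0.13, limma adjusted p = 0.125), and the count test on recovered reads called it lower (edgeR adjusted p = 0.032). Cdc20 (ENSMUSG00000006398, chr4:118432901-118437352) had 79.6 and 96.2 TPM in Ly6d-low and 107 and 130.0 TPM in Ly6d-high cells. Plk1 (ENSMUSG00000030867, chr7:122159439-122169873) had 31.1 and 32.4 TPM in Ly6d-low and 38.2 and 60.2 TPM in Ly6d-high cells. In both genes the Ly6d-high libraries were the higher, at 0.43 ± 0.16 and 0.58 ± 0.22 (limma adjusted p = 0.127 and 0.132). They stayed apart upward after TMM scaling, at 0.14 and 0.30, as Cdk2 did and no other member. The overlap of Cdc20 with Elovl1 on the opposite strand is 53 bases and that of Plk1 with Gm44985 is 1016 bases. Mki67 had 6.89 and 6.35 TPM in Ly6d-low and 8.04 and 7.35 TPM in Ly6d-high cells. Cenpf had 7.4 and 8.56 TPM in Ly6d-low and 8.92 and 10.2 TPM in Ly6d-high cells, and both were apart upward by small margins that closed under TMM. Cdc25c had 10.4 and 11.7 TPM in Ly6d-low and 11.9 and 14.8 TPM in Ly6d-high cells (0.24 ± 0.18).

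Ube2c and Ccnb2, the 2 most abundant mitotic transcripts of that table, overlapped between the groups on the deposited scale. Ube2c had 140.2 and 141 TPM in Ly6d-low and 151 and 135 TPM in Ly6d-high cells, and Ccnb2 had 124 and 129 TPM in Ly6d-low and 122 and 141 TPM in Ly6d-high cells. Their differences were 0.02 ± 0.12 and 0.05 ± 0.13 on the deposited scale and -0.27 and -0.24 after TMM. Top2a had 34.5 and 37.3 TPM in Ly6d-low and 32.3 and 40.8 TPM in Ly6d-high cells. Kif11 had 14.2 and 16.7 TPM in Ly6d-low and 12.3 and 17.3 TPM in Ly6d-high cells, and both overlapped as well on that scale. After TMM scaling both Ly6d-high libraries lay below both Ly6d-low libraries in Ube2c, Ccnb2, Top2a and Kif11. Cdk1, the mitotic kinase gene, had 51.6 and 50.9 TPM in Ly6d-low and 49.9 and 42.7 TPM in Ly6d-high cells, apart downward at -0.15 ± 0.15. The other 13 mitotic genes had differences between -0.20 (Kif20a) and 0.21 (Tpx2).

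The second Ly6d-high library moved with many of these values. It was higher than the first in 34 of the 43 members (median log2 ratio of TPM 0.28), while over all genes tested this held for 71.2% (median 0.19). In Ly6d-low the second library was higher in 33 of 43 members by a smaller step (median 0.07). Without the first Ly6d-high library 17 members passed the threshold, 15 higher and 2 lower, as did 49.2% of 13627 genes tested. Without the second Ly6d-high library 1 member did, Pcna, lower, beside 2.72% of 13625 genes called lower. The lone remaining library is then assumed to vary as the Ly6d-low libraries do.

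Replication and mitotic genes had medians close together between Ly6d-high and Ly6d-low. The medians were 0.08 and 0.06 on the deposited scale and -0.20 and -0.23 after TMM scaling, where both signs turn, and the class difference was 0.03 on either. By library, replication minus mitotic was -0.01 and -0.02 in Ly6d-low and -0.01 and 0.03 in Ly6d-high. The class difference ran from -0.04 to 0.10 as single libraries were left out. The summed TPM of the replication genes was 953 and 994 in Ly6d-low and 882 and 1069 in Ly6d-high, so the Ly6d-high libraries enclosed the Ly6d-low libraries. The plot of class means by library shows WT and overexpression parted in the order of the classes, and no such parting for Ly6d-high and Ly6d-low.

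**Figure D4:**
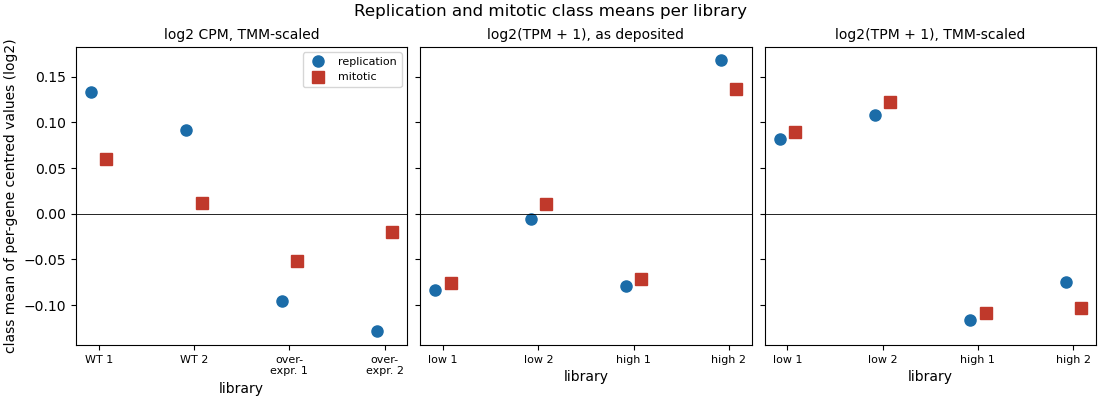
Mean of the 18 replication genes (blue circles) and of the 24 mitotic genes (red squares) in each library, every gene centred on its mean over the 4 libraries of its table (vertical axis, log2). Replication lies above mitotic in both WT libraries and below it in both overexpression libraries (left), while the Ly6d-low and Ly6d-high libraries change order with the scaling: as deposited the second Ly6d-high library is highest (middle), and after TMM scaling both Ly6d-high libraries are lowest (right).

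The 2 contrasts share no library, and the members' differences in one did not follow those in the other. Of the 43 genes, 10 lay below 0 in both contrasts, 5 above 0 in both, 25 below 0 for overexpression and above 0 for Ly6d-high, and 3 the reverse, on the deposited TPM scale, and the scaling turns many of the Ly6d-high signs. Spearman's rho over the 43 genes was -0.03, a description across genes, and the tables were normalized separately. Pcna was at -0.14 for overexpression and -0.43 for Ly6d-high, and Mcm3 at -0.33 and -0.01. Cdc20 was at -0.21 and 0.43, and Plk1 at -0.23 and 0.58. The plot of differences sets all members side by side.

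**Figure D5:**
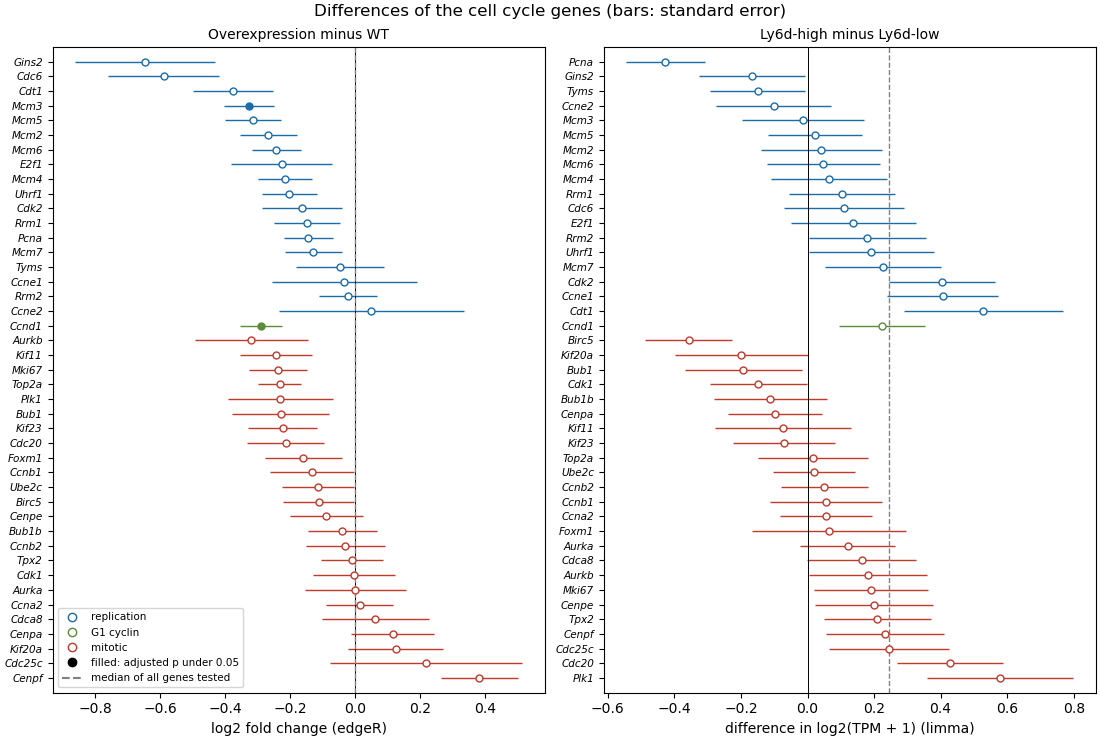
Difference of each of the 43 genes with its standard error (bars), as log2 fold change from edgeR for overexpression minus WT (left) and as difference in log2(TPM + 1) from limma for Ly6d-high minus Ly6d-low (right), by class. Filled points, Mcm3 and Ccnd1 on the left, passed the threshold, and the dashed line is the median of all genes tested, 0.25 on the right. After TMM scaling of the TPM that median is -0.01 and 38 of the members lie below 0.

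Other genes of the cycle, outside the 43, gave the following counts. Of 51 further replication genes (origin recognition, polymerases, clamp loader, GINS), none passed the test between overexpression and WT by edgeR or DESeq2 (11 lower at an unadjusted edgeR p under 0.05, beside 8.24% of all genes tested), with a median of -0.21 and 45 below 0, beside 50.2% of all genes. Of 59 further mitotic genes none passed by either tool (7 lower at an unadjusted edgeR p), with a median of -0.13 and 42 below 0. Both medians lay near those of the members of the same class. Between Ly6d-high and Ly6d-low 48 and 58 of them were tested, with medians of -0.03 and 0.04 on the deposited scale. Gins1, lower, was the gene called by limma, beside 1.17% of all genes tested called lower. The count test on recovered reads called 8 of 50 further replication genes and 6 of 59 further mitotic genes, all lower, beside 3.87% of all genes called lower. Gins1, a GINS subunit gene, had 36.8 and 35.9 TPM in Ly6d-low and 24.9 and 22.5 TPM in Ly6d-high cells, fell by 0.60 in log2(TPM + 1) (SE 0.15, limma adjusted p = 0.0485) and had an adjusted p of 0.00334 to 0.584 over the alternatives. None of 5 D cyclin and G1 kinase genes and none of 18 pocket protein, E2F and DREAM genes passed in either contrast by edgeR on counts or limma on TPM, Cdk4, Cdk6 and Rb1 among them (Cdk4 at 0.04 ± 0.08, Cdk6 at 0.05 ± 0.07 and Rb1 at 0.07 ± 0.15 for overexpression).

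Among 16 inhibitor and checkpoint genes 3 passed the test between overexpression and WT, all higher, beside 2.32% of all genes called higher. At an unadjusted edgeR p under 0.05 there were 6 higher, beside 9.05% of all genes, and 1 lower, Pkmyt1 (-0.44 ± 0.18, edgeR adjusted p = 0.236; named after its values were seen), a kinase gene that acts on CDK1 as Wee1 does. Btg2, an antiproliferative gene (chr1:134075170-134079120), had 244 and 225 CPM in WT and 347 and 316 CPM in overexpression cells (0.48 ± 0.07, edgeR adjusted p = 0.00262). Cdkn1b, which encodes the CDK inhibitor p27, had 80.95 and 80.97 CPM in WT and 109 and 103 CPM in overexpression cells (0.38 ± 0.08, edgeR adjusted p = 0.0229). Ccng2, which encodes the atypical cyclin G2, had 89.1 and 92.4 CPM in WT and 119 and 119 CPM in overexpression cells (0.37 ± 0.08, edgeR adjusted p = 0.0202). In each of the 3 both overexpression libraries were above both WT libraries. Cdkn1b lost its call without either WT library (adjusted p 0.00292 to 0.0849 over the alternatives) and Ccng2 without the first WT library (0.00219 to 0.112). Cdkn1a, which encodes p21, was at 0.21 ± 0.08 and Cdkn2a at 0.25 ± 0.08, neither past the threshold by edgeR (adjusted p = 0.176 and 0.143), although Cdkn2a passed with no filter on low counts and without the first WT library (its range was 9.19e-05 to 0.425). Between Ly6d-high and Ly6d-low, Wee1, the kinase gene that holds CDK1 inactive, was called higher, 1 of these 16 genes, beside 8.64% of all genes tested. It had 8.52 and 9.34 TPM in Ly6d-low and 14.9 and 17.2 TPM in Ly6d-high cells (0.78 ± 0.17, limma adjusted p = 0.0322, 0.000457 to 0.421 over the alternatives). It was lost under TMM scaling, with no filter on low TPM and without either Ly6d-low library.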

How the data were processed

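RNA was sequenced from KPC1199 cells sorted from tumours, in 4 groups of 2 libraries. The submitters' processing notes list HISAT2, fastp, DESeq2, featureCounts and the build mm9, with no versions. Of the 54532 genes in the tables, 98.3% of the 54409 found in GENCODE for GRCm38 have identical coordinates there, as do 41 of the 43 members, so coordinates are called GRCm38. Columns taken as WT and overexpression cells are in a deposited table of whole-number counts, not normalized by the authors. Ly6d-high and Ly6d-low cells are in a deposited table of TPM, made by the authors from reads and the gene length in the same table. Another 2 count columns matched no label and were left out.

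Counts were tested with edgeR 4.0.16 (R 4.3.3; filterByExpr, TMM, quasi-likelihood test), and standard errors are the log2 fold change over the square root of F. TPM were tested on the log2(TPM + 1) scale by limma-trend (limma 3.58.1) for genes reaching 1 TPM in 2 or more libraries, a scale that understates changes of low genes. Benjamini-Hochberg adjusted p under 0.05 over all genes tested was the threshold, and the edgeR and limma fits were tested on simulated data. Each table was fitted and normalized by itself. Reads were recovered from the TPM times gene length: 100% of 85643 values above 0 were whole within 0.1 reads. All 43 members passed the filters on low values in both tables. Alternatives were DESeq2 1.42.0, RLE factors, no filter on low values, a pseudocount of 0.1, TMM factors on TPM, edgeR on recovered reads, a replicate block, leaving out each library, and a shorter promoter window.

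Genes with values in every library were chosen by rule: members past the threshold, the 4 of lowest p per class and contrast, the 3 of highest length-scaled level per class, and Ccnd1; from other lists, up to 4 genes past the threshold, and 6 known regulators. Further members are given to account for their class. The members and the 14 other gene lists (all entries matched a gene, 3 by another symbol) were chosen with earlier results of these data known.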

Additional observations from a re-analysis of the deposited data

How the results depend on the processing

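Between overexpression and WT, 2 members passed the threshold with TMM or RLE factors, 1 with DESeq2 (Ccnd1) and 5 with no filter on low counts (Mcm3, Mcm5, Cdc6, Top2a and Ccnd1). With single libraries left out the number ran from 1 to 4: Ccnd1 without either WT library, Mcm5, Cdc6, Gins2 and Ccnd1 without overexpression 1, and Mcm3, Mcm2 and Mki67 without overexpression 2. The replication minus mitotic median of -0.11 ran from -0.15 to -0.097 as libraries were left out, with 1 sign throughout. Between Ly6d-high and Ly6d-low, 0 members passed on the deposited TPM, with a pseudocount of 0.1, with no filter or with TMM factors, and 2 with edgeR on recovered reads. Leave-one-out numbers ran from 0 to 17, the highest without Ly6d-high 1, and the class difference of 0.029 ran from -0.038 to 0.104. Of 30 named genes, 16 changed sign under TMM factors on TPM and 16 with edgeR on recovered reads. The 7 genes past the threshold as reported kept their sign in every setting. The shorter promoter window (100 bases before the start) left E2F in 7 replication promoters and CHR in 15 mitotic promoters. The cause of these changes was not tested.

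No paired analysis was possible for overexpression against WT because the overexpression columns could not be matched to numbered samples. For Ly6d-high and Ly6d-low, samples with the same number deviated little together from gene to gene (r = 0.0681 over 14625 genes). That r leaves out any shift common to all genes. The second library was the higher in 60.5% of genes tested in Ly6d-low and 71.2% in Ly6d-high. Whether samples with the same number were paired therefore cannot be told from r. With the replicate block 4 members passed (Pcna lower; Cdt1, Cdc20 and Plk1 higher), as did 28.6% of all genes tested, and the class difference stayed at 0.029.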
